A study of Mus musculus with 10 samples.

Results

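The cytosolic ribosomal protein genes are the genes for the protein subunits of the ribosome that works in the cytoplasm. They were taken from the deposited count table by symbol: names of the forms Rps and Rpl followed by a number, the stalk genes Rplp0 to Rplp2, and Rpsa. Pseudogenes named with -ps and the S6 kinases were left out. The rule found 90 genes among 57186, of which 54 belong to the large subunit and 36 to the small one. Subunit proteins whose genes carry other kinds of names, such as Fau and Rack1, fall outside it; their values are given beside the members.

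RNA came from the neuroretina of female C57BL6/JRj mice, whose age the sources used here do not state. One group received an injection into the vitreous, the gel inside the eye, of graphitic carbon nitride nanoparticles (hg-C3N4, called CNP). They were suspended in phosphate-buffered saline (PBS) at 1 mg/mL, and 1 µL was given. The other group received PBS alone, so every eye in the study had been injected. Mice were killed on day 14, and each group has 5 libraries. Each library keeps the number that its label gives: PBS 2, 6, 10, 14 and 18, and CNP 4, 8, 12, 16 and 20. The labels do not say that the 10 libraries came from 10 separate animals, so p-values measure the spread between these libraries.

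A ribosome joins a small subunit, which reads the mRNA, to a large one, which forms the peptide bonds and holds the tunnel through which the new chain leaves. Most subunit proteins are present once in each ribosome, while the stalk proteins Rplp1 and Rplp2 enter as dimers, and cells coordinate them partly at translation. Most ribosomal protein mRNAs start with a cytosine followed by a run of pyrimidines, the TOP motif (terminal oligopyrimidine), through which the kinase mTOR controls how much of them is translated. RNA abundance, which is what was counted here, does not report on that step. In the retina, photoreceptors renew their light-sensing membranes throughout life and so make protein at a high rate.

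Total counts ran from 3328518 to 5428697 per library. Photoreceptor markers were abundant: 12 rod genes summed to between 53490 and 98750 CPM (counts scaled to library size with TMM factors). Lens genes summed to between 308 and 13110 CPM and retinal pigment epithelium genes to between 1072 and 3208 CPM. Both are tissues of the eye outside the neuroretina, and their part in the counts was not separated. In bulk tissue, fewer cells of a type and less RNA per cell cannot be told apart.

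Of the 90 members, 84 are annotated as protein coding and 6 as pseudogenes that carry a gene-like name (Rps4l, Rps12l1, Rpl6l, Rpl32l, Rps3a2 and Rps3a3). The low-count filter kept 82 members, 49 of the large and 33 of the small subunit, and these are called the tested members. Rpl10l and Rps12l1 had 0 counts in all 10 libraries. The other 6 untested members were Rpl6l with 68 counts in all, Rpl32l and Rpl3l with 11 each, Rpl39l with 6, Rps3a2 with 4 and Rps3a3 with 3. Rpl3l and Rpl10l are known for expression in muscle and in testis.

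Sequence at the annotated start was read for 65 members that have an entry in the RefSeq promoter table (GRCm38.p6), with 77 starts in all. The starts shown include members not called higher in libraries numbered above 10, a comparison given below (Rpl7l1, Rpl36al, Rpl10, Rpl24 and Rps6). Of these, Rpl10, Rpl24 and Rps6 had positive log2 folds of 0.27, 0.31 and 0.14, below the members' median of 0.53. The other starts are of paralogues and of members with high levels or large spread. Each line gives 25 bases before and 25 bases from the annotated start, 5′ to 3′ on the strand of the gene. Capitals mark the longest run of C and T in the 50 bases.
Rps18 (chr17:33955641-33955690, minus strand): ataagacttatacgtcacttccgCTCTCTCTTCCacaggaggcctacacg
Rps27 (chr3:90213624-90213673, minus strand): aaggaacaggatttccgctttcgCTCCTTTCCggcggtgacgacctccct
Rps27l (chr9:66946061-66946110, plus strand): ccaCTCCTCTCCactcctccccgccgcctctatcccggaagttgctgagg
Rps10 (chr17:27635220-27635269, minus strand): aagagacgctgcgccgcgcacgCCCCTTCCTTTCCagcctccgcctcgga
Rplp2 (chr7:141447626-141447675, plus strand): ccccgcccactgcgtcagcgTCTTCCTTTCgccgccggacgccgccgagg
Rpl22l1 (chr3:28805483-28805532, plus strand): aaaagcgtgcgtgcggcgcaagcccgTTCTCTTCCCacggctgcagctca
Rpl14 (chr9:120571492-120571541, plus strand): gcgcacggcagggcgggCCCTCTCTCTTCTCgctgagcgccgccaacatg
Rpl9 (chr5:65391407-65391456, minus strand): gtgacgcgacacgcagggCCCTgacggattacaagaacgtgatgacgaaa
Rpl36a (chrX:134585629-134585678, plus strand): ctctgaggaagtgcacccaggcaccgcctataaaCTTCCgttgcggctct
Rpl36al (chr12:69184043-69184092, minus strand): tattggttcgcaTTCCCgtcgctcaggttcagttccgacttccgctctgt
Rpl7l1 (chr17:46782632-46782681, minus strand): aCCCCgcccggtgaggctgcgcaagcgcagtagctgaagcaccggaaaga
Rpl10 (chrX:74270791-74270840, plus strand): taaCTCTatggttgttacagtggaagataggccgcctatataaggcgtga
Rpl24 (chr16:55966250-55966299, plus strand): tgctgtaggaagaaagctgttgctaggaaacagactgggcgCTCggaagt
Rps6 (chr4:86857343-86857392, minus strand): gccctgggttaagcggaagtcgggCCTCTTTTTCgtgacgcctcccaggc
Rps27l has 2 starts in the table and the first is shown. In Rps18, Rps27, Rps10, Rplp2, Rpl14 and Rps6 the pyrimidine run spans the annotated start, whereas in Rps27l it ends before it. Rpl7l1, Rpl36al, Rpl10 and Rpl24 have runs of 3 to 5 bases. Rpl9 and Rpl36a, which were called higher, have runs of 4 and 5 bases.

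A run of 8 or more C or T lay in this 50-base window at 35 of the 77 member starts (45.5%) and at 6464 of 32851 RefSeq starts (19.7%). CTTTC on the gene's strand, which can lie inside such a run, was in the same window at 24.7% of member starts and 6.76% of all starts. In the whole 300-base sequence, CCGGAAG, the core that ETS factors bind, stood on either strand in 35.1% of member sequences and 8.86% of all. GCCATNTT, the core of the YY1 site, stood on either strand in 22.1% and 6.05%. A match describes letters in an annotated window and does not show a start site in retina or a bound factor.

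Levels of members differed widely. Rps14, a protein of the small subunit's platform, had 5977 CPM per kilobase of transcript (mean of 10 libraries). Next came Rps18 with 1441, Rps27 with 1328, Rplp1 with 1206 and Rpl41 with 1172 CPM per kilobase. Rps14 thus stood far above the next member on this scale. The lowest tested members per kilobase were Rpl36al with 18.3, Rpl7l1 with 30.1, Rps10 with 35.2, Rpsa and Rps20 with 44.1 and 44.2, and Rpl24 with 49.2 CPM per kilobase. The median was 284 CPM per kilobase over the 49 large subunit members and 300.3 over the 33 small subunit members. Rps20 and Rpl7l1 are low on this scale through chosen transcripts of 3706 and 2606 bases: their mean CPM of 164 and 78.4 lay well above those of Rpl36al (9.63), Rps10 (22.6) and Rpl24 (33.3), the lowest without regard to length. Kilobases refer to 1 chosen GENCODE M21 transcript per gene. Without regard to length Rps14 was also the highest, with a mean of 3568 CPM, followed by Rps18 with 807. The primers of this protocol carried molecular identifiers, so counts need not scale with length. Whether they do was not tested.

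Many ribosomal protein genes have processed pseudogenes, so reads can match several places. For each member, windows of 50 bases along its chosen transcript were looked up letter for letter in transcripts of other genes. The median member shared 50% of its windows, 18 members shared more than 80%, and 3, Rpl3l and Rpl39l among them, shared none. Rps27 shared 98.7% of its windows, Rpl9 93.3% and Rps14 38.1%. Over windows in the last 300 bases alone, Rps27 and Rpl9 shared 100% and Rps14 22.3%. Some members differed strongly: Rpl11 shared 62.2% over the whole transcript and 0% over the last 300 bases. Rpl35 shared 40.1% and 96.0%. The sources used here do not state how reads with several matches were treated, so levels of members with much shared sequence are uncertain. The 15 tested members with under 30% of windows shared had a median of 232 CPM per kilobase, the 41 with 30 to 70% had 309, and the 26 with over 70% had 281. The 300 -ps rows, 103 of which had any count, took 0.00194 to 0.00355% of counts per library. Pseudogenes under other names are not among these rows, such as the member Rps4l with 4944 counts. By GENCODE M21, exons of 20 members overlap those of a gene on the opposite strand and those of 28 overlap another gene on the same strand, in many cases a small nucleolar RNA. Rps10 overlaps a gene model that joins it to Nudt3. Strand use in counting is not stated either, so reads of overlapping genes cannot be told apart.

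**Figure D1:**
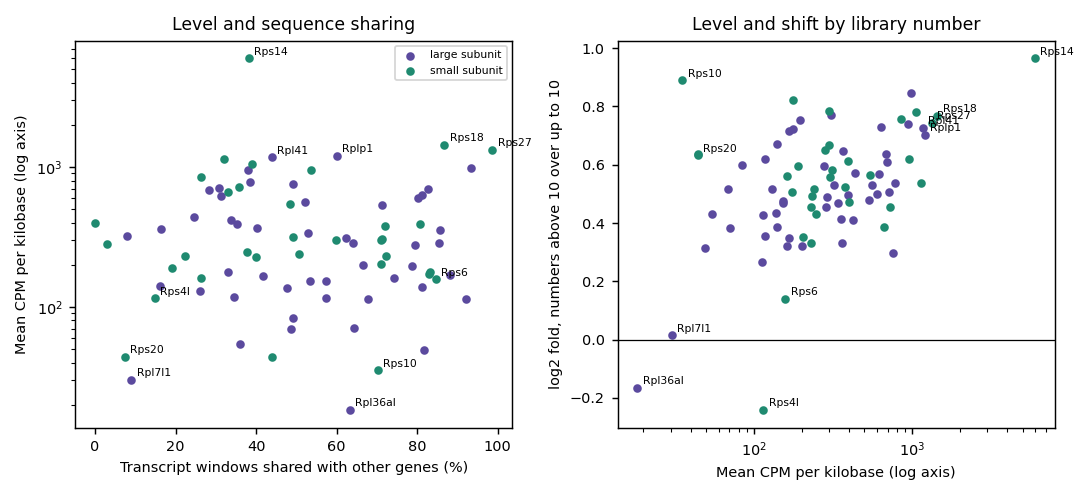
Mean CPM per kilobase of transcript (log axis) of the 82 tested members against the share of their 50-base windows found in other genes' transcripts (left), and the log2 fold of libraries numbered above 10 over those up to 10 against the same level (right), coloured by subunit. Rps14 stands alone at 5977 CPM per kilobase, and Rps4l and Rpl36al lie below 0 in the right panel.

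All members together took 1.95 to 3.18% of the counts in a library. The share was 2.06% in PBS 2, 1.95% in PBS 6, 2.44% in PBS 10, 3.18% in PBS 14 and 3.05% in PBS 18. In the CNP libraries it was 2.50% in CNP 4, 2.19% in CNP 8, 2.88% in CNP 12, 3.01% in CNP 16 and 2.59% in CNP 20. The groups overlapped throughout, with means of 2.54% ± 0.563 (SD, n = 5) for PBS and 2.63% ± 0.325 (SD, n = 5) for CNP. The highest and the lowest library of all 10 were both PBS. The 5 libraries numbered above 10 (2.59 to 3.18%) all lay above the 5 numbered up to 10 (1.95 to 2.50%). Rps14 alone supplied 10.9 to 17.1% of the member counts.

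**Figure D2:**
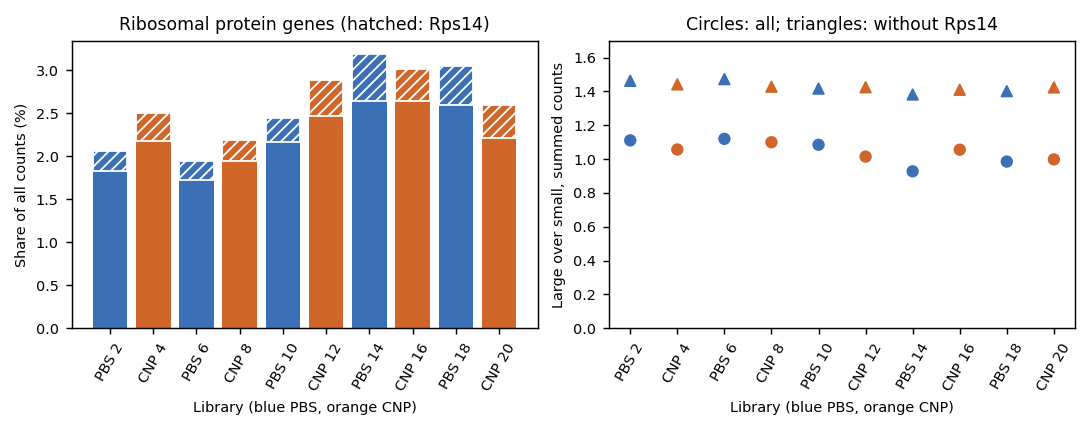
Share of all counts in ribosomal protein genes per library in percent, with the part from Rps14 hatched (left), and the ratio of summed large to summed small subunit counts with all members (circles) and without Rps14 (triangles) (right), blue for PBS and orange for CNP. The share runs from 1.95% in PBS 6 to 3.18% in PBS 14, and without Rps14 the ratio stays between 1.38 and 1.47.

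Members moved together across libraries. As a median over the 82 tested members, the log2 deviation from a gene's own mean was -0.43 in PBS 2, -0.48 in PBS 6, -0.28 in CNP 8, -0.12 in PBS 10 and -0.07 in CNP 4. It was 0.22 in CNP 12, 0.44 in PBS 14, 0.28 in CNP 16, 0.34 in PBS 18 and 0.04 in CNP 20. In PBS 2 and PBS 6, 1 of 82 members was above its own mean, against 81 of 82 in CNP 12, PBS 14 and CNP 16 and 79 of 82 in PBS 18. PBS 14 was the highest library for 60 members and PBS 6 the lowest for 61. The median member was 1.90-fold higher in PBS 14 than in PBS 6, and single members ranged from 0.84-fold to 3.17-fold. These folds depend on the TMM factors, 0.848 for PBS 14 and 1.088 for PBS 6. As a share of all counts, Rps14 took 0.543% in PBS 14 and 0.220% in PBS 6. The subunits had close medians: the median deviation in PBS 14 was 0.43 for the large and 0.45 for the small subunit.

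The coefficient of variation (CV) of TMM-scaled CPM over the 10 libraries had a median of 22.4% in tested members. It was 18.9% over all 11499 tested genes and 15.1% over the 7588 other genes whose mean CPM lay within the members' range. That order depended on the scaling: with library totals in place of TMM the median CV was 15.5% for tested members, 16.2% for genes of like abundance and 20.2% for all tested genes. Counting alone would give a median CV of 3.28% at the members' depth. The largest CVs belonged to Rps14 (40%), Rps10 (35.9%), Rpl9 (34.1%), Rps7 (31.9%) and Rps18 (31.7%). Rps14 had 2144 CPM in PBS 2, 2029 in PBS 6, 2583 in PBS 10, 6423 in PBS 14 and 4944 in PBS 18. In the CNP libraries it had 3180 CPM in CNP 4, 2199 in CNP 8, 4329 in CNP 12, 3796 in CNP 16 and 4057 in CNP 20. PBS thus holds both the lowest and the highest values of this gene, and CNP lies between them. Rps18 repeated this order at its ends, with 509 CPM in PBS 6 and 1271 in PBS 14. The smallest CV was that of Rpl7l1 at 4.41%, below the 5.35% that counting alone would give it, with 71.2 to 82.0 CPM over the 10 libraries. Rpl7l1 encodes a protein similar to Rpl7 that works in ribosome assembly. Rps6, the subunit protein that S6 kinases phosphorylate, had the next smallest CV, 12%.

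**Figure D3:**
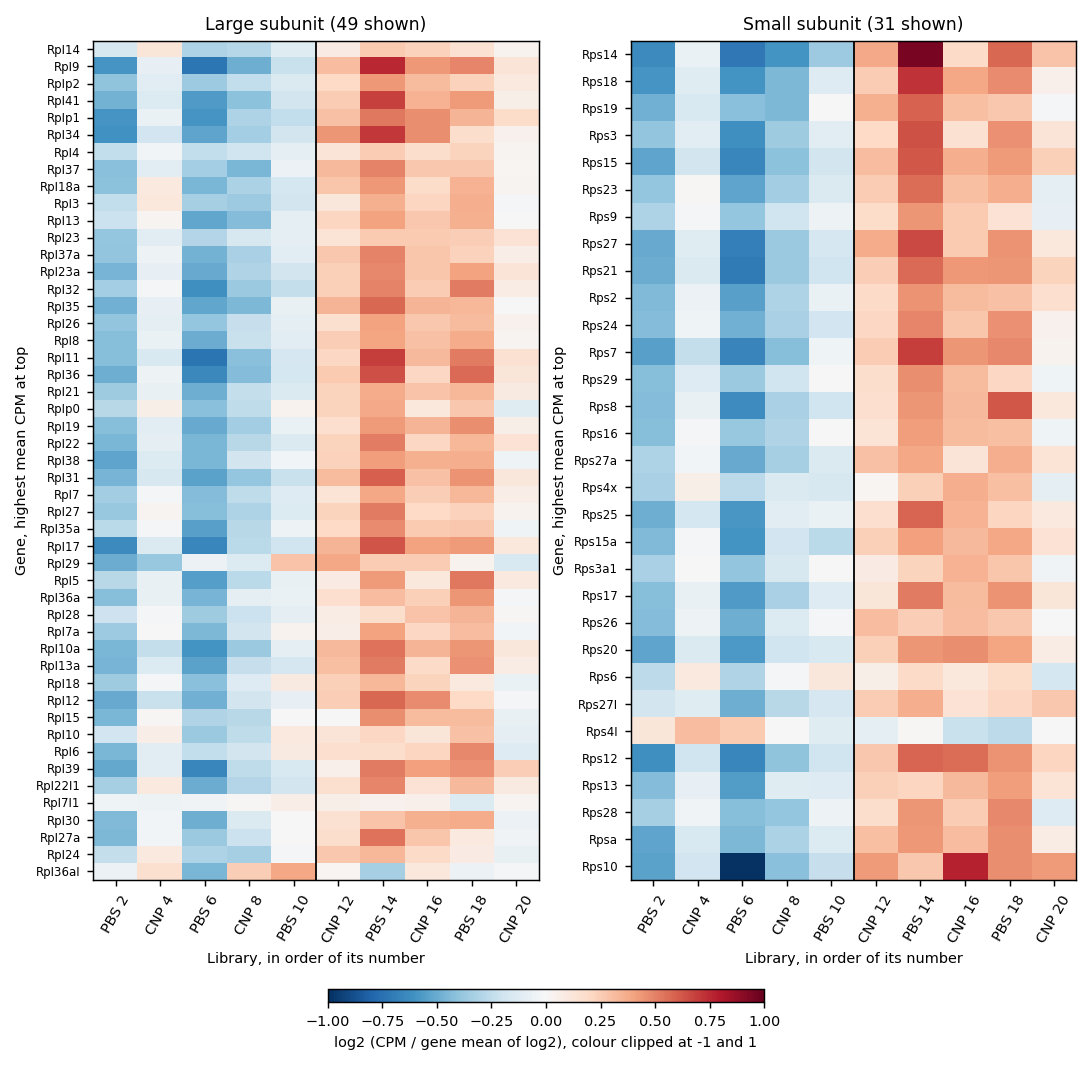
Log2 deviation of each tested member from its own mean in each library (80 of the 82 shown), red above and blue below, with genes in rows by mean CPM and libraries in columns in order of their number; the line separates numbers up to 10 from those above. PBS 6 and PBS 2 are blue and PBS 14 and PBS 18 red for most genes, while Rpl7l1 and Rpl36al in the large and Rps4l in the small subunit do not follow.

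The libraries numbered above 10 were compared with those up to 10 over all genes, with treatment in the model. The first set holds PBS 14 and 18 and CNP 12, 16 and 20, and the second PBS 2, 6 and 10 and CNP 4 and 8. The labels do not say what the numbers stand for, and the split at 10 was chosen with earlier results of these data known. By edgeR's quasi-likelihood test with Benjamini-Hochberg adjustment, 75 of 82 tested members (91.5%) were higher above 10 and 0 were lower. Among all 11499 genes, 14.4% were called higher and 16.7% lower. The median log2 fold of members was 0.53, against -0.02 over all genes, and it was 0.50 in the large and 0.56 in the small subunit. The largest were Rps14 with 0.96 (adjusted p = 0.000616, edgeR), Rps10 with 0.89 (adjusted p = 0.000631) and Rpl9 with 0.85 (adjusted p = 0.000631). For 52 of 82 members every library above 10 was higher than every library up to 10, which held for 9.82% of all genes. With library totals in place of TMM the count was 56 members higher and 1 lower, against 5.61% of all genes higher (645) and 3759 genes lower, and the median of all genes shifted to -0.23 while that of members was 0.32. Leaving out 1 library at a time gave 66 to 78 members higher. The count was 66 without PBS 14, where 9.03% of all genes were higher, and 78 without PBS 10, where 16.7% were. Without PBS 10, 1 member was also called lower, beside 1919 of 11639 genes.

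The members not called were Rpl10, Rps6, Rpl29, Rpl24, Rpl7l1, Rpl36al and Rps4l. Rpl10 and Rpl24 join the large subunit late, in the cytoplasm, and had log2 folds of 0.27 (adjusted p = 0.0707, edgeR) and 0.31 (adjusted p = 0.0524). Rplp0, also listed as late-joining, was called higher with 0.35 (adjusted p = 0.029, edgeR). Rps6 had 0.14 (adjusted p = 0.337, edgeR) and Rpl29 0.32 (adjusted p = 0.1). Rpl7l1 had 0.01, Rpl36al -0.16 and Rps4l -0.24 (adjusted p = 0.0781, edgeR). Rps4l had 117 CPM in PBS 2, 133 in CNP 4, 129 in PBS 6, 107 in CNP 8 and 98.9 in PBS 10. Above 10 it had 101 CPM in CNP 12, 108 in PBS 14, 91.9 in CNP 16, 89.8 in PBS 18 and 108 in CNP 20. Its 3 highest libraries were thus numbered up to 10, where most members had their lowest values. Of the 56 called members with a RefSeq start, 31 had a pyrimidine run of 8 or more near it, and of the 5 uncalled ones 1 did, Rps6. The median log2 fold was 0.53 for tested members with such a run and 0.52 for those with a start but no run.

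Other transcripts moved with the members. Fau and Rack1 were called higher above 10, with log2 folds of 0.59 and 0.71 (adjusted p = 0.00102 and 0.000452, edgeR). Rod markers were higher in 11 of 12 tested genes and pigment epithelium markers in 8 of 9, while amacrine cell markers were lower in 7 of 7, bipolar markers in 5 of 7 and ganglion cell markers in 5 of 6. Summed rod markers ran from 53490 to 62760 CPM up to 10 and from 72290 to 98750 above, and summed amacrine markers from 977 to 1513 CPM and from 517 to 850. Pigment epithelium markers summed to 1072 to 2037 CPM up to 10 and 2218 to 3208 above. Mitochondrially encoded genes took 1.96 to 2.39% of counts up to 10 and 3.21 to 4.45% above. Among other genes with a transcript under 1000 bases, 430 of 864 (49.8%) were higher above 10, with a median log2 fold of 0.35, and of those with 4000 bases or more 158 of 3308 (4.78%) were. Among tested members, 53 of 59 with under 1000 bases and 22 of 23 with 1000 or more were higher. Mitochondrial ribosomal protein genes, added after their values were seen, were higher in 40 of 78, with a median of 0.29. Total counts ran from 4325794 to 5428697 in libraries up to 10 and from 3328518 to 4337612 in those above. Summed raw counts of all members averaged 111100 up to 10 and 113400 above. The part of sequencing depth, cell composition, transcript length or RNA quality in the members' shift was not tested.

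CNP was then set against PBS. No tested gene passed an adjusted p of 0.05 by edgeR's quasi-likelihood test, so 0 of 82 members and 0.0% of 11499 genes were called. At an unadjusted p under 0.05 there were 0 members and 137 genes (1.19%). DESeq2 and limma-voom also called 0 genes, with 0 members at an unadjusted p under 0.05 in either. No member had groups that did not overlap, against 0.287% of all genes. The median log2 fold change of members, CNP over PBS, was 0.04, with 65 positive and 17 negative, and the median over all genes was -0.00358 with 48.8% positive. For 81 of 82 members the 95% interval lay within a 2-fold difference either way and for 71 within 1.5-fold. Among all 11499 genes, 10794 lay within 2-fold and 7409 within 1.5-fold.

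No marker gene was called between the groups either. Lens markers, which rose and fell together across libraries, had 13 of 13 negative estimates with a median of -1.44. Their summed CPM overlapped, with 308 to 13110 in PBS and 399 to 5029 in CNP, and was highest in PBS 10. Amacrine markers had 6 of 7 negative estimates with a median of -0.21. Pigment epithelium markers had 8 of 9 positive estimates with a median of 0.36. The part of these markers in the members' estimates was not tested.

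The members' median rested on single libraries. Without PBS 14 it was 0.18 and without PBS 18 0.14, whereas without PBS 6 it was -0.05 and without PBS 2 -0.05. Leaving out CNP 8 gave 0.12 and leaving out CNP 16 -0.01. Among libraries numbered up to 10 the members' median difference in log2 CPM was 0.16, with 78 of 82 positive, and among those above 10 it was -0.21, with 77 of 82 negative. Over all 11499 genes the medians were 0.00554 and 0.00731, with 51.5% positive in each set. The interaction of treatment and number had an edgeR adjusted p under 0.05 for 0 members and 0.0% of genes, with a smallest adjusted p of 0.999. Its unadjusted p was under 0.05 for 25 of 82 members and 3.29% of all genes, and its estimate was negative for 79 members (96.3%) with a median of -0.37, against 47.9% of all genes with a median of 0.01. With number as a covariate the median log2 fold change was -0.02, with 28 positive and 54 negative.

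**Figure D4:**
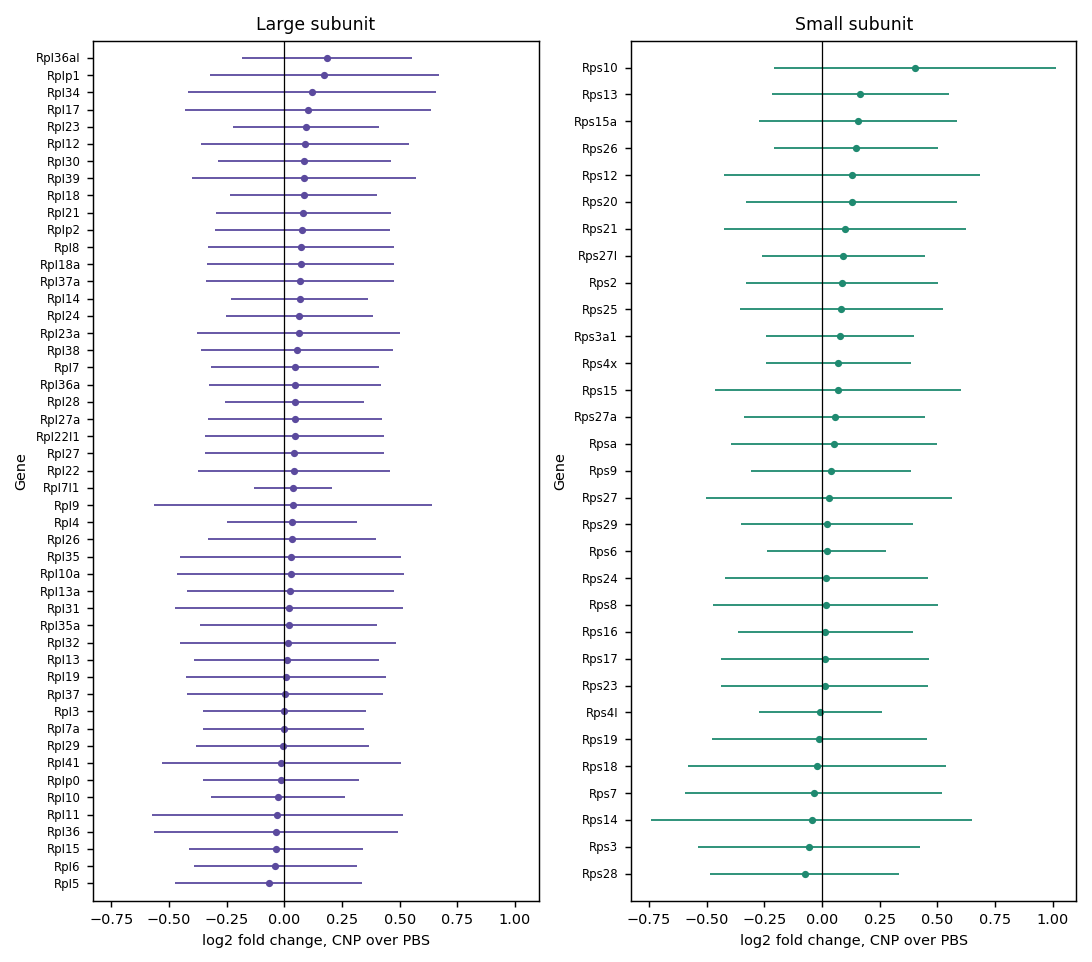
Log2 fold change of CNP over PBS with its 95% interval from edgeR for 80 of the 82 tested members, large subunit left and small subunit right. Every interval shown crosses 0, and the largest estimate is 0.40 for Rps10.

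The head of the small subunit moves as the ribosome steps along the mRNA, and its 13 listed proteins had log2 fold changes from -0.07 (Rps28) to 0.40 (Rps10), with a median of 0.02. Rps10, a protein of the head whose gene is mutated in some patients with Diamond-Blackfan anaemia, had the smallest p of all members. It had 14.7 CPM in PBS 2, 10.7 in PBS 6, 18.1 in PBS 10, 25.7 in PBS 14 and 29.3 in PBS 18. In CNP libraries it had 18.6 CPM in CNP 4, 15.9 in CNP 8, 28.6 in CNP 12, 36.2 in CNP 16 and 28.6 in CNP 20. The groups overlapped, and the log2 fold change of 0.40 (SE 0.28, adjusted p = 0.9997, edgeR) had an interval from -0.21 to 1.01. At the mRNA exit and start-codon contacts, Rps26 had 0.15 (SE 0.16) and Rps28 -0.07 (SE 0.19). At the mRNA entry channel Rps3, which also acts in DNA repair, had -0.06 (SE 0.22) and Rps2 0.09. Rps13 had 0.17 (SE 0.18) and Rps15a 0.16 (SE 0.20).

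In the large subunit, Rpl5 and Rpl11 bind the 5S RNA and, when free, inhibit Mdm2, the regulator of p53. Rpl5 had a log2 fold change of -0.07 (SE 0.19) and Rpl11 of -0.03 (SE 0.25). The 4 genes of the stalk and its base, which recruits elongation factors, had a median of 0.08, from -0.01 for Rplp0 to 0.17 for Rplp1 (SE 0.23). All 8 proteins around the mouth of the exit tunnel had positive estimates, from 0.01 (Rpl19) to 0.10 (Rpl17), each smaller than its standard error. Rpl4, Rpl17 and Rpl39, which line the tunnel, had a median of 0.09. Among late-joining proteins the estimates were -0.03 for Rpl10, 0.06 for Rpl24 and -0.01 for Rplp0. Rpl6 had -0.04 (SE 0.16), Rpl15 -0.04 (SE 0.17) and Rpl36al 0.19 (SE 0.17). The 18 genes linked to Diamond-Blackfan anaemia, a failure of red cell production, had 12 positive and 6 negative estimates with a median of 0.02. These role lists overlap and were chosen with earlier results known.

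Summed large subunit counts were close to summed small subunit counts in every library. The ratio was 1.11 in PBS 2, 1.12 in PBS 6, 1.08 in PBS 10, 0.93 in PBS 14 and 0.99 in PBS 18. In CNP libraries it was 1.06 in CNP 4, 1.10 in CNP 8, 1.01 in CNP 12, 1.06 in CNP 16 and 1.00 in CNP 20. Both groups had a mean of 1.05, with an SD of 0.0851 for PBS and 0.0399 for CNP (n = 5 each), and their ranges overlapped. PBS 14 was lowest and PBS 6 highest. Both the level and the spread depended on Rps14: without it the ratio was 1.38 to 1.47 over the 10 libraries, with 1.43 ± 0.039 (SD, n = 5) for PBS and 1.43 ± 0.0113 (SD, n = 5) for CNP. By library number, the ratio with Rps14 was 1.057 to 1.12 up to 10 and 0.928 to 1.056 above. Without Rps14 it was 1.417 to 1.473 and 1.382 to 1.425, and these ranges overlapped. Mean log2 CPM of large minus small subunit members was -0.320 to -0.276 up to 10 and -0.367 to -0.343 above. The ratio sums 54 large against 36 small subunit genes and does not measure assembled subunits.

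Paralogues are second gene copies that encode a similar or alternative subunit. Of 9 pairs, 7 had at least 10 counts of both genes and were tested by an exact permutation test of the log2 ratio over all assignments of libraries to the groups, two-sided, for which the smallest possible p is 0.00794. After adjustment over the 7 pairs none passed, with an adjusted p of 0.96 for each, and the smallest unadjusted p was 0.159 for Rplp2 over Rplp1 (exact permutation test). The 2 stalk proteins pair with each other rather than replace each other. Rplp2 took 56.9% of the pair's counts in PBS 2, 57.6% in PBS 6, 55.5% in PBS 10, 52.1% in PBS 14 and 51.8% in PBS 18. In CNP libraries it took 53.1% in CNP 4, 54.9% in CNP 8, 52.1% in CNP 12, 51.2% in CNP 16 and 52.2% in CNP 20. The groups overlapped, and the 5 libraries above 10 all lay below the 5 up to 10.

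Rpl22l1, which can stand in for Rpl22 and is known from splicing control in development, had a share of its pair that ranged over few percentage points. It took 27.9 to 31.6% of the counts of the pair, with a mean of 28.9% ± 0.993 (SD, n = 5) for PBS and 28.8% ± 1.57 (SD, n = 5) for CNP. Rps27l, which p53 induces, took 17.4 to 24.4% of its pair with Rps27, with means of 20.6% in both groups. Rps4l, annotated as a pseudogene, took 33.7% ± 6.9 (SD, n = 5) of its pair with the X-linked Rps4x in PBS libraries and 32.3% ± 4.82 (SD, n = 5) in CNP libraries. Its share ranged from 24.5% in CNP 16 to 41.2% in PBS 6. With 4944 counts in all and 14.9% of its windows shared with other genes, it was the one pseudogene-annotated member that passed the filter. Rpl7l1 took 24.4 to 37.1% of its pair with Rpl7, and Rpl36al 4.33 to 8.82% of its pair with Rpl36a. Libraries up to 10 and above 10 averaged 34.3 and 27.7% for Rpl7l1, 7.93 and 5.54% for Rpl36al, and 37.2 and 28.8% for Rps4l.

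The tissue-restricted copies had few counts. Rpl3l, the muscle copy of Rpl3, had 0 to 4 counts per library and 0.0529% of the pair's pooled counts (95% Wilson interval 0.0296 to 0.0947%, counting error only). Its log2 ratio differed by 0.78 between groups (p = 0.31, exact permutation test), which rests on 11 counts, 4 of them in CNP 12. Rpl39l had 6 counts, 0.164% of its pair (95% Wilson interval 0.0753 to 0.358%). Rpl10l had 0 counts beside 3931 of Rpl10, which allows a share of up to 0.0976% at the upper Wilson bound.

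Of the wider translation machinery, 0 genes were called between CNP and PBS in any list (edgeR, adjusted p of at least 0.9997). Fau and Rack1, both of the small subunit, had log2 fold changes of 0.08 and 0.10. The 11 genes listed as elongation factors or TOP mRNAs had 9 positive and 2 negative estimates with a median of 0.03. They ran from -0.15 for Eef1a2 to 0.11 for Eef1a1. Whether each listed mRNA carries the TOP motif was not tested. Of 31 initiation factor genes 19 were positive and 12 negative with a median of 0.01, and Eif3a had the smallest p, with an estimate of 0.26 (SE 0.17). In the mTOR and S6 kinase axis 12 of 19 tested genes were positive, with a median of 0.10, and Rptor, the mTORC1 scaffold, had -0.31 (SE 0.17). Ribosome assembly genes had 15 positive and 19 negative estimates and a median of -0.01, with Nolc1, a nucleolar chaperone, at -0.19 (SE 0.10).

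The same lists were counted by library number, where 14.4% of all genes were called higher above 10 and 16.7% lower; no test between lists was run. Of the 11 genes on the elongation factor and TOP list 6 (54.5%) were called higher and 1 (9.09%) lower. Of the 31 initiation factors 7 (22.6%) were higher and 3 (9.68%) lower. Of the 19 tested genes of the mTOR and S6 kinase axis 1 (5.26%) was higher and 4 (21.1%) lower. The lower ones were Akt1s1, Rps6ka2, Rps6ka5 and Rps6kl1. Of the 34 assembly genes 1 (2.94%) was higher and 3 (8.82%) lower. Eef1a1, the common elongation factor, was higher with a log2 fold of 0.61 (adjusted p = 0.000426, edgeR), while Eef1a2, its copy in neurons and muscle, was lower with -0.93 (adjusted p = 0.000606). Eef1a1 ran from 328 to 414 CPM up to 10 and from 545 to 630 above, so these ranges did not overlap.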

How the data were processed

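Polyadenylated RNA of 10 neuroretinas (5 PBS, 5 CNP) was reverse transcribed with barcoded primers carrying molecular identifiers, per the labels' protocols. STAR, STARsolo and build GRCm39 are named in the submitters' processing notes; versions, annotation, strand use, handling of reads with several matches and collapsing of molecular identifiers are not stated. The authors deposited raw counts per Ensembl gene. Wilson intervals cover counting error only, whereas edgeR intervals carry the spread between libraries.

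The whole table was filtered with filterByExpr (minimum count 10, minimum total 15; 11499 genes) and fitted with edgeR 4.0.16 (TMM, quasi-likelihood test, two-sided, Benjamini-Hochberg adjustment, threshold 0.05) in R 4.3.3, with DESeq2 1.42.0 and limma 3.58.1 as alternatives. Standard errors follow from p and its degrees of freedom. Log2 CPM used a prior count of 2, and paralogue ratios a pseudocount of 0.5. The script was tested on simulated data. Named genes were the 5 smallest p in each direction, the 5 highest in each subunit, the 5 largest CVs, paralogue pairs, untested members, role lists, and up to 4 smallest p of other lists. Members with the lowest levels or CVs, those not called by library number, and Rps27 and Rpl9 for shared sequence were named after their values were seen. The same holds for the genes of the mTOR and S6 kinase axis called lower by library number, and for Rpl11 and Rpl35 under shared sequence. Symbols matched 51880 of 57186 IDs. Transcript lengths and overlaps came from GENCODE M21 (GRCm38), another build than that of the counts. Members and lists were chosen with earlier results of these data known. Within groups, chi-square per degree of freedom between libraries was 3.99 to 32.6, so no pair agreed within sampling noise. Results for a few genes are not reported here.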

Additional observations from a re-analysis of the deposited data

Results flagged for a closer look

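A total of 3 values stood apart from the other 4 libraries of their group by Dixon's criterion, among 84 sets of 5 values examined, of which chance flags about 1 in 20. Rpl22l1 had 67.1 CPM in CNP 8, against 87.3 to 91.8 CPM in the other CNP libraries. As a share of its pair with Rpl22, Rpl22l1 took 30.6% in PBS 2, against 28.2 to 28.7% in the other PBS libraries. It took 31.6% in CNP 4, against 27.9 to 28.7% in the other CNP libraries. The low CPM in CNP 8 was matched by Rpl22 itself, at 167 CPM, so the share of the pair there was 28.7%.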

How the results depend on the processing

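No gene was called between CNP and PBS under any of the 19 alternatives run, so 0 members were. With library totals only, the members' median CV was 15.5%, against 16.2% for genes of like abundance. Among libraries numbered above 10 the difference in large over small subunit ratio, CNP minus PBS, was 0.0666, among those up to 10 -0.0272, and over all -0.000698; this and the other splits by number were added after seeing the data. The cause was not tested. No log2 fold change of a member was called, and some changed sign: Rps14 was 0.054 with limma-voom, 0.00299 with library totals and 0.0399 with log2 total as covariate; with number as covariate Rpl22l1 was -0.012 and Rps4l 0.040, and with log2 total Rps4l was 0.00528. Leaving out 1 library at a time gave -0.18 to 0.047 for Rps28, -0.19 to 0.072 for Rpl5, -0.19 to 0.13 for Rps3, -0.15 to 0.093 for Rpl6, -0.14 to 0.091 for Rpl15, -0.20 to 0.26 for Rps14, -0.062 to 0.19 for Rpl22l1, -0.00415 to 0.21 for Rps27l and -0.088 to 0.064 for Rps4l. For log2 ratios of pairs it gave -0.16 to 0.062 for Rpl7l1, -0.050 to 0.027 for Rpl22l1, -0.24 to 0.049 for Rps4l, -0.066 to 0.088 for Rps27l and -0.019 to 0.25 for Rpl36al. The members' share of counts, CNP minus PBS, ran from -0.0482 to 0.260 percentage points and the subunit ratio from -0.0303 to 0.0179. No paired analysis was possible because the groups share no replicate number. Depth limits Rpl36al (431 counts), Rps10 (950) and the 8 untested members.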
